A study of Sorghum propinquum with 2 samples.

Results

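Dw3 (locus Sb07g023730) and TB1 (locus Sb01g010690) are the sorghum genes best known for stem height and for branching. They were taken by locus ID, and both were listed in the rhizome and in the shoot, so they make 2 of the 24371 listed genes. The deposited tables give a locus ID, a length, a read count and an RPKM (reads per 1000 bases of gene length, for every 1000000 reads counted) for each gene, and no gene names. The names Dw3 and TB1 are those these loci carry in sorghum genetics, and nothing in the tables checks them. RNA was sequenced from the rhizomes, the stems that grow underground, and from the shoots of *Sorghum propinquum*, a wild relative of cultivated sorghum. Both organs came from 1 unnamed greenhouse-grown vegetative clone with many tillers and strong rhizomes, sampled at the active tillering stage, and the labels name no treatment. There was 1 library per organ, with 16862624 reads in listed genes for the rhizome and 17153968 for the shoot. No value below therefore has an error between plants, no p-value is given, and every interval is an exact 95% interval that covers counting error only. Organ markers could not be checked against the labels without gene names.

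Auxin made in young leaves and shoot tips moves down the stem from cell to cell, and its flow sets both the elongation of the stem and the outgrowth of side buds. Dw3 encodes an ABCB1-type carrier, a membrane pump of the ATP-binding cassette family that exports auxin. Loss of Dw3 in cultivated sorghum, like loss of its counterpart Br2 in maize, shortens the stem internodes and gives a dwarf plant. TB1 encodes a transcription factor of the TCP family, the counterpart of maize *teosinte branched1*. In maize it acts within axillary buds to hold back their outgrowth, and plants that lack it branch freely. Tillers and rhizomes both start from axillary buds, which grow upward in the first case and below ground in the second.

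Dw3, the auxin exporter, was lower in the rhizome library than in the shoot library. It had 1373 reads in the rhizome and 2373 reads in the shoot. Its level was 10.5 RPKM in the rhizome (interval 9.94 to 11.1) and 17.8 RPKM in the shoot (17.1 to 18.5). The intervals of the 2 levels lay apart. The ratio of rhizome to shoot was 0.589 (interval 0.550 to 0.629), or -0.76 on the log2 scale, which is a level 1.70-fold higher in the shoot (1.59 to 1.82). Dw3 RNA was thus present at an easily counted level in both organs, and the rhizome library had less of it per read in listed genes. In bulk tissue, fewer cells that express a gene and less of its RNA in each cell cannot be told apart.

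TB1, the repressor of bud outgrowth, was scarcer and leaned the other way. It had 99 reads in the rhizome and 70 reads in the shoot. Its level was 5.13 RPKM in the rhizome (interval 4.17 to 6.25) and 3.57 RPKM in the shoot (2.78 to 4.51), and these intervals overlapped in part. The ratio of rhizome to shoot was 1.44 (interval 1.05 to 1.98), or 0.52 on the log2 scale (0.07 to 0.99). The interval of the ratio, which compares the 2 counts directly, lay just above 1 in the values as deposited. With 169 TB1 reads in all, the smallest split whose interval would lie above 1 was 98 rhizome reads against 71 shoot reads, a 1.40-fold ratio, so the observed split passed that line by 1 read. Under median-of-ratios scaling the ratio was 1.28 and its interval, 0.930 to 1.76, included 1. TMM scaling gave the same ratio with an interval of 0.931 to 1.76. Whether TB1 differed between these libraries therefore rests on the scaling. Dw3, with 3746 reads in all, could have shown a ratio as small as 1.07-fold in either direction.

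**Figure D1:**
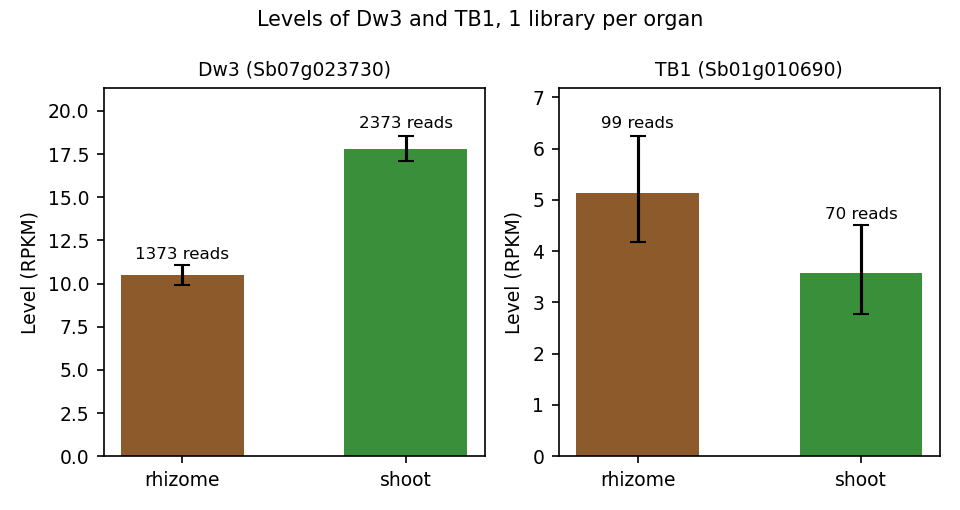
Levels of Dw3 and TB1 in RPKM in the rhizome and shoot libraries, 1 library each; bars start at 0, error bars are exact 95% Poisson limits of the read count, and read counts stand above the bars. Dw3 was at 10.5 RPKM in the rhizome and 17.8 RPKM in the shoot with separate limits, and TB1 was at 5.13 RPKM in the rhizome and 3.57 RPKM in the shoot with limits that overlap.

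Neither gene reached a 2-fold difference. Of the 19324 genes with at least 1 RPKM in the higher library, 13.0% passed 2-fold towards the rhizome and 17.1% passed 2-fold towards the shoot. A counting interval that leaves out 1 was common among the same genes, with 46.8% above 1 (rhizome higher) and 31.4% below 1 (shoot higher). That the intervals of both Dw3 and TB1 left out 1 in the deposited scaling is therefore what most genes showed at this depth. The median log2 ratio of these genes was 0.20, with quartiles of -0.54 and 0.67, so the middle gene was slightly higher in the rhizome. Relative to that median Dw3 lay at -0.96 log2 units, outside the quartiles, and 20.7% of the genes had a lower ratio than Dw3. TB1 lay at 0.33 log2 units relative to the median, inside the quartiles, and 32.3% of the genes had a higher ratio than TB1.

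The same reading was made among genes closer to each of them. Of 1223 genes with a read total near that of Dw3 (2997 to 4681 reads over the 2 libraries), 14.6% had a lower ratio. Of 1229 genes with a deposited length near that of Dw3 (6213 to 9702 bases), 9.52% had a lower ratio and the quartiles were -0.13 and 0.60. These quartiles were closer together than those of all genes, and Dw3 stood farther out among genes of its own length. TB1 did not move in this way. Of 1478 genes with 136 to 211 reads, 34.0% had a higher ratio than TB1, and of 2250 genes of 916 to 1430 bases, 32.3% did. These shares describe where each ratio lies and are not tests.

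**Figure D2:**
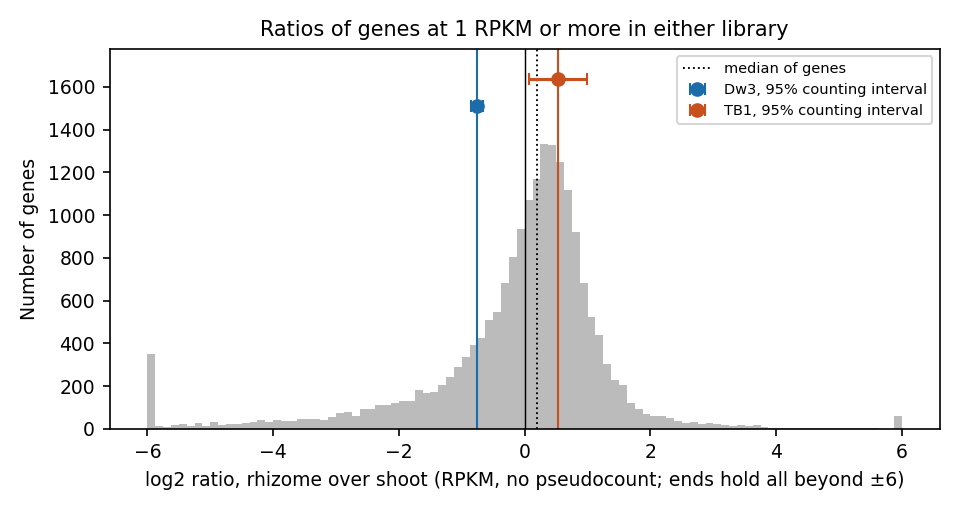
Number of genes by log2 ratio of rhizome over shoot for the 19324 genes that reached 1 RPKM in a library, with Dw3 and TB1 as points with 95% counting intervals above the bars and as vertical lines, and the median of the genes (0.20) as a dotted line. Dw3 at -0.76 lies on the left shoulder of the distribution and TB1 at 0.52 lies on the right within its central part.

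The balance between Dw3 and TB1 differed between the 2 libraries by more than counting error. Per length, Dw3 exceeded TB1 2.04-fold in the rhizome (interval 1.67 to 2.53) and 4.99-fold in the shoot (3.94 to 6.43). These folds rest on the deposited lengths, whose measurement is not stated, and the intervals do not cover that uncertainty. In reads the excess was 13.9-fold in the rhizome (11.3 to 17.2) and 33.9-fold in the shoot (26.7 to 43.6), because the deposited length of Dw3 is 6.79 times that of TB1. The ratio of rhizome to shoot of Dw3 was 0.409 times that of TB1 (interval 0.295 to 0.566, conditional odds ratio of the 4 counts). Library totals and gene lengths cancel in this value, so no scaling of the libraries can move it, and its interval lay below 1. For single genes in the deposited scaling, intervals that left out 1 were common. Among genes with at least 1 RPKM in the higher library, 46.8% had an interval above 1 and 31.4% one below 1. How often other pairs of genes differed as much was not measured.

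Dw3 stood in the upper part of the list in each organ. By RPKM it ranked 7170 of 24371 listed genes in the rhizome (6893 to 7465 at the Poisson limits of its count) and 4729 in the shoot (4589 to 4877). Its level was thus above that of 70.6% of the listed genes in the rhizome and of 80.6% in the shoot. It was 2.55 times the median level of 4.11 RPKM in the rhizome and 4.25 times the median level of 4.19 RPKM in the shoot. Among genes with at least 1 RPKM in the same library, 59.7% lay below Dw3 in the rhizome and 74.1% in the shoot. The deposited length of Dw3 is 7766 bases, longer than 94.4% of the listed genes. By reads, without division by length, Dw3 ranked 2997 in the rhizome and 1517 in the shoot. The sources used here do not say how length was measured. A length that holds introns lowers an RPKM and leaves the ratio between organs as it is. Among the 1461 listed genes of 6213 to 9706 bases, Dw3 ranked 434 in the rhizome and 178 in the shoot.

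TB1 stood near the middle of the list. By RPKM it ranked 11034 in the rhizome (9954 to 12112 at the Poisson limits) and 13029 in the shoot (11777 to 14283), and these ranges overlapped. Its level was above that of 54.7% of the listed genes in the rhizome and of 46.5% in the shoot. That is 125% of the median level in the rhizome and 85.0% of the median level in the shoot. Among genes with at least 1 RPKM in the same library, 38.0% lay below TB1 in the rhizome and 28.5% in the shoot. Its deposited length of 1144 bases is longer than 21.5% of the listed genes. By reads TB1 ranked 14237 in the rhizome and 15852 in the shoot. TB1 is a factor known from axillary buds. It had 5.87 reads per 1000000 in the rhizome and 4.08 in the shoot. Both were well above a floor set at 3 reads (0.178 per 1000000 in the rhizome and 0.175 in the shoot). TB1 RNA was therefore detected in both organs, and the share of buds in each sample was not measured.

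**Figure D3:**
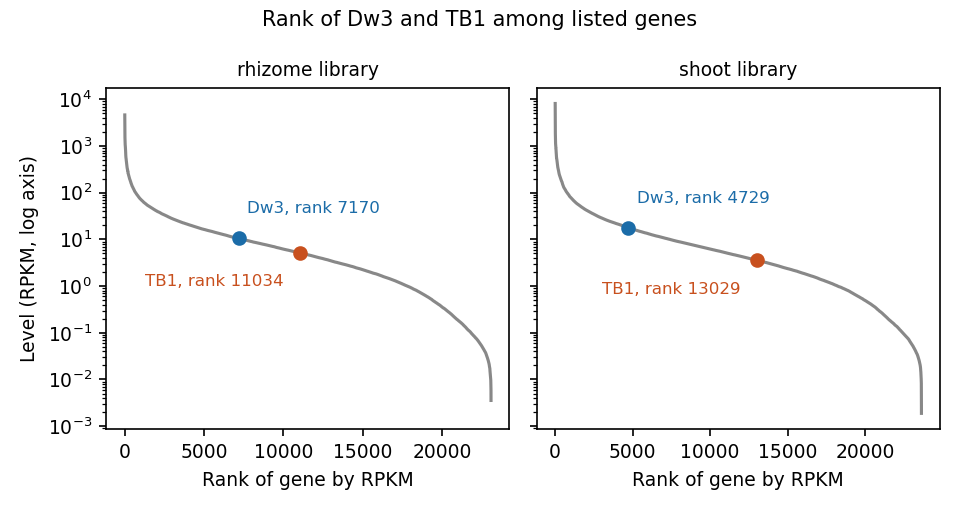
RPKM (log axis) against rank for the listed genes with reads in the rhizome library (left) and in the shoot library (right), with Dw3 and TB1 marked. Dw3 ranked 7170 in the rhizome and 4729 in the shoot, and TB1 ranked 11034 in the rhizome and 13029 in the shoot.

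The genes most like each of them were found by Euclidean distance on the log2(RPKM + 1) scale over the 2 libraries. Nearest to Dw3 were Sb06g029680 and Sb01g016560. Sb06g029680 had 10.7 RPKM in the rhizome and 18.2 RPKM in the shoot, at a distance of 0.04, and Sb01g016560 had 10.3 RPKM in the rhizome and 18.1 RPKM in the shoot, at the same rounded distance. Nearest to TB1 were Sb02g026780, with 5.14 RPKM in the rhizome and 3.57 RPKM in the shoot, and Sb0013s007040, with 5.15 RPKM in the rhizome and 3.56 RPKM in the shoot, at distances of 0.0028 and 0.0055. With 2 values per gene, such likeness is easily met. Within the counting intervals of both levels lay 9 other genes for Dw3 and 750 other genes for TB1. The wider intervals of TB1 and the density of genes at its level both enter that count and were not separated.

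By the digits of its ID Dw3 lies on chromosome 7, and TB1 on chromosome 1, in the gene order of the annotation behind these IDs; the sources used here name no genome build and no base positions. Dw3 differed in direction from most of the genes around it. Of the 10 listed genes before it and the 10 after it in ID order, 14 had at least 1 RPKM in either library. Of these, 12 were higher in the rhizome, each with an interval above 1 (10 of them under median-of-ratios and TMM scaling), and 2 were higher in the shoot. Over all genes at that level 46.8% had an interval above 1, and 37.7% under either rescaling. The median log2 ratio of the 14 neighbours was 0.63. The gene just before Dw3 had 909 reads in the rhizome and 671 in the shoot, and the gene just after it had 1062 reads in the rhizome and 678 in the shoot. Both were therefore higher in the rhizome while Dw3 between them was lower. The 2 of these 14 that were higher in the shoot followed each other, at the 8th and 9th places after Dw3. The first of them had 338 RPKM in the rhizome and 2578 RPKM in the shoot. The 6 neighbours below 1 RPKM in both libraries leaned both ways and were left out of these counts. One neighbour had 11 reads in the rhizome and 0 in the shoot, and the counting interval of its ratio ran from 2.55 upward.

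The surroundings of TB1 were mixed. Of the 19 neighbours with at least 1 RPKM among the 20 taken, 8 were higher in the rhizome and 11 in the shoot (7 and 12 under median-of-ratios and TMM scaling), with a median log2 ratio of -0.24. The interval lay above 1 for 7 of them and below 1 for 10, or 5 and 10 under these rescalings. Over all genes at that level 46.8% had an interval above 1 and 31.4% one below 1. Under either rescaling these shares were 37.7% and 38.2%. The gene just before TB1 had 936 reads in the rhizome and 775 in the shoot, and the gene just after it had 690 reads in the rhizome and 963 in the shoot. In the rhizome 14 of the 20 neighbours had a higher RPKM than TB1, and in the shoot 17 did. Of all listed genes, 54.7% lay below TB1 in the rhizome and 46.5% in the shoot. Over the whole of each chromosome the genes at 1 RPKM or more had a median log2 ratio of 0.21 for chromosome 7 (1279 genes) and 0.17 for chromosome 1 (3597 genes), close to the 0.20 of all genes.

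**Figure D4:**
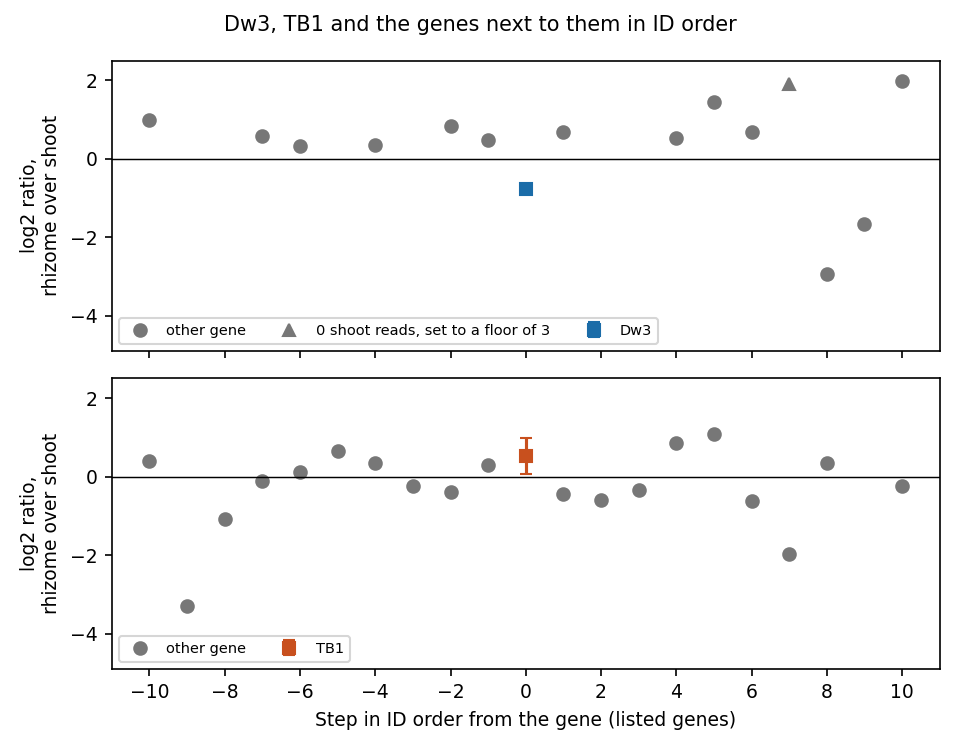
Log2 ratio of rhizome over shoot for Dw3 (top) and TB1 (bottom), squares with 95% counting intervals, and for the genes at 1 RPKM or more within 10 steps in ID order, circles; the triangle is a gene with 0 shoot reads, plotted with a floor of 3. Dw3 lies below 0 between neighbours of which 12 of 14 lie above it, and TB1 lies among neighbours on both sides of 0.

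The libraries can be scaled in other ways than by the total of the listed counts. Median-of-ratios and TMM scaling each lowered every ratio of rhizome to shoot by 0.17 log2 units. Dw3 then had a ratio of 0.522 under each, with intervals of 0.488 to 0.558 and 0.488 to 0.559, a level 1.92-fold and 1.91-fold higher in the shoot. With median-of-ratios scaling 9.15% of genes passed 2-fold towards the rhizome and 19.8% towards the shoot, and 37.7% had an interval above 1 and 38.2% one below 1. With TMM scaling the shares were 9.16% and 19.8% at 2-fold, and 37.7% and 38.2% by interval. Dw3 was lower in the rhizome under all 4 scalings, with each interval below 1. TB1 had a ratio above 1 under all 4 scalings, and its interval lay above 1 in the deposited scaling and in the scaling that left out each library's 100 most abundant genes (1.04 to 1.96).

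**Figure D5:**
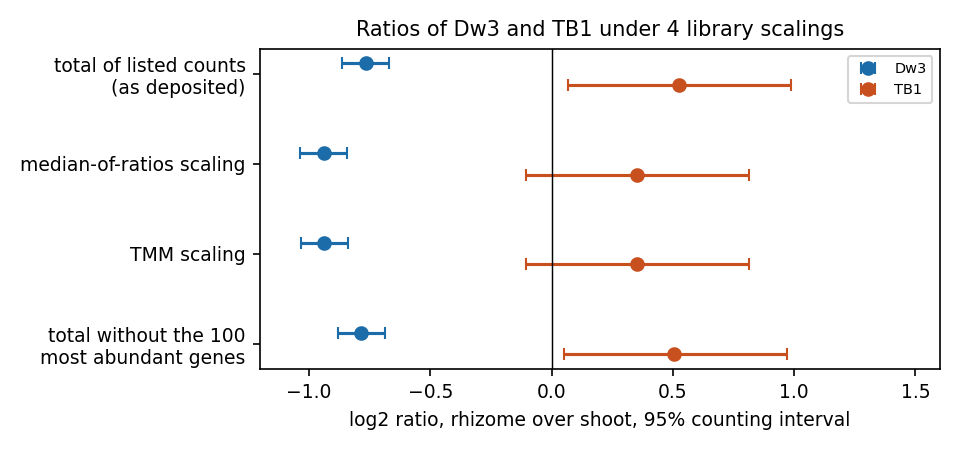
Log2 ratio of rhizome over shoot for Dw3 and TB1, with 95% counting intervals, under 4 scalings of the libraries. The intervals of Dw3 lie below 0 under each scaling, and those of TB1 include 0 under median-of-ratios and TMM scaling.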

How the data were processed

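Total RNA of 1 rhizome and 1 shoot sample was extracted with TRIzol and sequenced as Illumina libraries, per the labels' protocols. Which aligner, counter, strand setting, build and annotation the authors chose is not given in the sources used here. The deposited counts are whole reads per gene. The deposited RPKM values of the authors follow from those counts, the deposited lengths and the total of the count column (differences under 0.0001). Reads shared between near-identical or overlapping genes cannot be seen in these tables, so both genes' counts carry that uncertainty.

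Ratios had exact conditional binomial (Clopper-Pearson) intervals, single counts exact Poisson limits, and the comparison of the 2 genes a conditional odds ratio, all at 95%. Reads are not known to be independent molecules. With 1 library per organ edgeR's quasi-likelihood test could not be fitted. Genes were called at 2-fold and 1 RPKM in the higher library. Named genes were the members, and the 2 genes nearest each on the log2(RPKM + 1) scale. The 7 lists planned on product names (ABCB, PIN, AUX/LAX and TCP families, strigolactone, auxin synthesis, green tissue) could not be filled without gene names, so 0 were described. The members, lists and rules were chosen with earlier results of these data known. The interval code was checked on simulated Poisson counts. Software was R 4.3.3 with edgeR 4.0.16 (TMM), and Python 3.11.15 with scipy 1.17.1, numpy 2.4.6, pandas 2.3.3 and matplotlib 3.10.9.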

Additional observations from a re-analysis of the deposited data

How the results depend on the processing

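No paired analysis was possible because rhizome and shoot have a single library each, so none could be left out in turn. The log2 ratio of Dw3 (-0.76) was -0.94 under both median-of-ratios and TMM scaling, beyond its counting interval, and lay between -0.94 and -0.71 over the 5 alternatives. That of TB1 (0.52) lay between 0.35 and 0.51, and the Dw3 to TB1 ratio of ratios (-1.29 on the log2 scale) was -1.14 and -1.27 with pseudocounts of 1 and 0.1 RPKM. The share of genes below Dw3 was 87.7% in the rhizome and 93.8% in the shoot by reads, 59.7% in the rhizome and 74.1% in the shoot among genes with at least 1 RPKM, and 87.8% in the shoot among genes of similar length. The share below TB1 was 41.5% in the rhizome and 34.7% in the shoot by reads, 38.0% in the rhizome and 28.5% in the shoot among genes with at least 1 RPKM, and 61.3% in the rhizome among genes of similar length. Genes called higher in the rhizome and in the shoot numbered 2511 and 3308, against 528 and 1787 for a 4-fold rule. A floor of 5 RPKM gave 1412 and 2156, and no floor gave 3934 and 5129. Under TMM scaling they numbered 1772 and 3826. The cause of these shifts lies in the changed rule, scaling or set of genes. Depth limits TB1, at 169 reads, more than Dw3, at 3746. Variation between plants is unknown.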
